A study of Drosophila melanogaster and Drosophila simulans with 11 samples.

Results

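In larval salivary glands of wild type *Drosophila melanogaster*, the binding of MOF was compared with that of MSL2 along the genome, 1 ChIP-seq library of each. The members are the 1 kb bins in which at least 25 positions carried a value in both libraries. There were 75352 such bins, of 109271 bins with a value in either library, and 5397 of them lay on X. The level of a library in a bin is the mean of its log2 ratio of ChIP to input over those shared positions. Both groups were of the strain Oregon R, were dissected from 3rd instar larvae with 125 glands in each sample, and differed in the antibody, anti-MOF or anti-MSL2. The GEO labels give no sex for them, while the legends of the study speak of males. Both ratios rest on the same wild type input, so that variation in this input enters both. With 1 library a side there is no spread between replicates, no test was made, and every difference describes these libraries. Glands of an unstated number of larvae were pooled in each sample, and gland cells are polytene, which limits what is seen to that cell type.

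The MSL complex of male flies consists of MSL1, MSL2, MSL3, the helicase MLE, the acetyltransferase MOF and the non-coding roX RNAs. MSL2 is made in males only and contacts DNA at the high affinity sites of X, from which the complex spreads to active genes. MOF acetylates lysine 16 of histone H4, and apart from the MSL complex it is a subunit of the NSL complex, which sits at promoters of active genes on all chromosomes. MSL2 therefore marks the MSL complex, whereas MOF can be bound with or without it.

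The scaling between ChIP and input is not known, so each library was centred on its own median over the autosomal arm bodies. These are the arms of chromosomes 2 and 3 without the 2 Mb at the centromere end, and they held 65979 bins. A level of 0 is the autosomal median of that library, and 1 unit is 2-fold. The MOF library varied more than the MSL2 library, with a standard deviation over these autosomal bins of 0.41 for MOF and 0.19 for MSL2. The number of reads behind a value is unknown.

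Not every position carried a value, and this differed between the libraries. On X, 21.3% of the positions spaced 10 bp apart had a value for MOF and 48.3% for MSL2, and 18.3% had both. On the 4 autosomal arms these shares were 50.5%, 72.0% and 45.9%. Shared positions are not a random sample of X. At them the deposited MSL2 ratio had a median of 0.58, against 0.27 at positions of X with a value for MSL2 only. On 2L, where the positions were split the same way, these medians were 0.18 and 0.20. The MOF ratio on X had a median of 1.12 at shared positions, against 0.62 at positions with a value for MOF only. On each of the 4 autosomal arms the MOF ratio went the other way. It was -0.011 at shared positions of 2L against 0.29 at positions with MOF only, and 0.32 against 0.52 on 3R. The shared positions thus leave out autosomal positions of higher MOF.

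Both proteins were higher on X than on the autosomes, and in log2 units MOF rose further above its autosomal level than MSL2. Divided by the median absolute deviation of its autosomal bins, each library rose alike, to medians of 2.72 for MOF and 2.48 for MSL2. Over the 5397 bins of X the median level was 0.77 for MOF and 0.31 for MSL2. The middle 50 percent of the bins ran over 0.22 to 1.67 for MOF and over 0.07 to 0.64 for MSL2. The highest bins of X reached 3.37 for MOF and 1.65 for MSL2, whereas the highest bins of the autosomal bodies reached 1.24 for MOF and 0.81 for MSL2. The lower quartile of MOF on X, 0.22, lay close to its upper quartile on the autosomal bodies, 0.26, so that at least 25 percent of the bins of X lay below that upper quartile.

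The libraries followed each other closely along X. Across the bins of X, MOF and MSL2 correlated with Pearson's r of 0.88 and Spearman's rho of 0.86, against 0.40 and 0.40 across the bins of the autosomal bodies. The bins share an input and neighbours are not independent, so these are descriptions. The correlation on X was 0.88 in 1 kb bins, 0.91 in 5 kb bins, 0.91 in 20 kb bins and 0.83 in 66 bins of 100 kb. After the mean of each 100 kb window was subtracted, it was 0.88 on X and 0.43 on the autosomal bodies. The agreement on X was thus seen in single bins of 1 kb as well as in longer stretches.

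**Figure D1:**
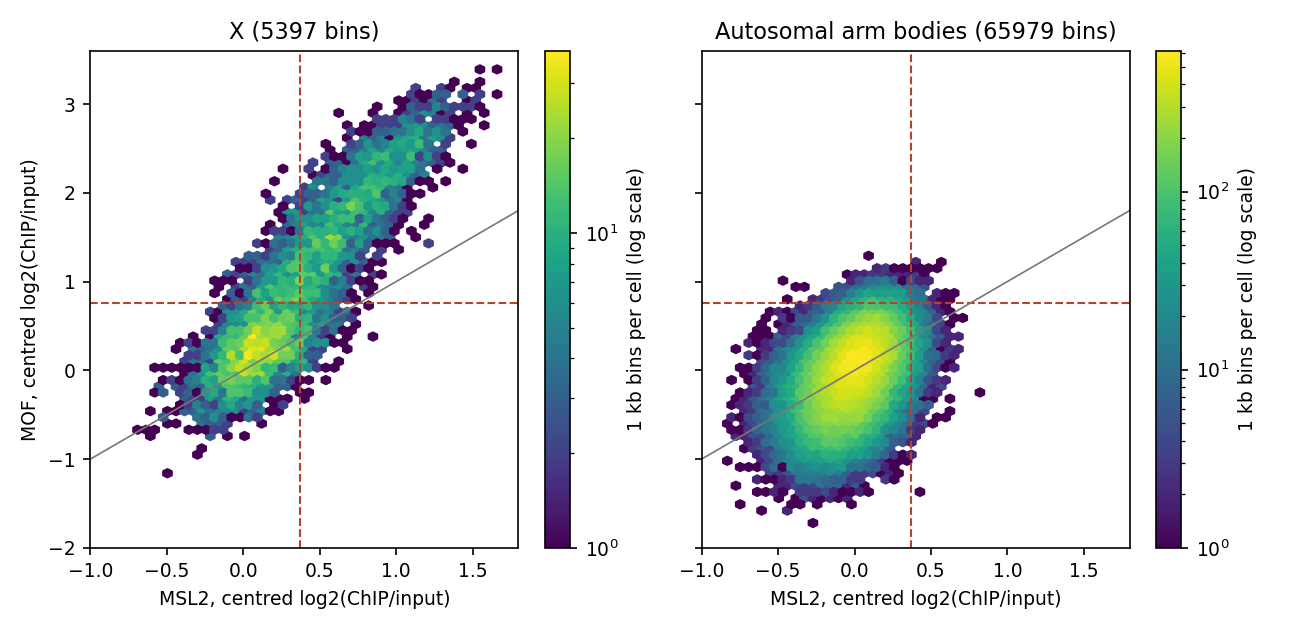
Each panel counts 1 kb bins by their centred log2 level of MSL2 (x axis) and MOF (y axis), for 5397 bins of X on the left and 65979 bins of the autosomal arm bodies on the right; the colour is the number of bins in a cell on a log scale, dashed lines mark the cutoffs of the highest 5 percent of each library (0.76 for MOF and 0.37 for MSL2) and the grey line marks equal levels. The bins of X form a narrow band that rises more steeply than the grey line, and the autosomal bins form a cloud around 0.

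Levels of MOF rose with those of MSL2 on X and far less on the autosomes. When the bins of X were divided into 10 groups of equal size by MSL2, the median MOF level was -0.065 in the lowest group, 0.54 in the 5th, 1.23 in the 7th and 2.51 in the highest, in which the median MSL2 level was 1.11. On the autosomal bodies the median MOF level was -0.33 in the lowest group and 0.23 in the highest. The least-squares slope of MOF on MSL2 was 2.02 on X and 0.86 on the autosomal bodies. The standard deviation of MOF relative to that of MSL2 was 2.29 on X and 2.13 on the autosomal bodies. The slopes thus differ mainly as the correlations do. MSL2 also varied less on the autosomal bodies, with a standard deviation of 0.19 against 0.39 on X. Whether noise in MSL2 plays a part in the lower slope was not tested.

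Bins with the same MSL2 level did not hold the same MOF level on X and on the autosomes. At an MSL2 level of 0.4 to 0.6, the median MOF level was 1.26 in 803 bins of X (quartiles 0.83 and 1.57) and 0.28 in 790 bins of the autosomal bodies (0.05 and 0.50). These quartile ranges do not overlap. This step lies above the 95th percentile of MSL2 on the autosomal bodies, 0.30. On X it lies between the median of 0.31 and the upper quartile of 0.64. Bins of equal MSL2 were thus in the upper tail of the autosomal set and in the middle range of X. Whether noise in MSL2 among such extreme autosomal bins plays a part in their lower MOF level was not tested. At an MSL2 level of 0 to 0.2 the medians were 0.30 in 1178 bins of X and 0.10 in 24151 autosomal bins, with quartile ranges that overlap. The distance between X and the autosomes thus widened with the MSL2 level. Beyond an MSL2 level of 0.6 the autosomal bodies had 23 bins at 0.6 to 0.8, with a median MOF level of 0.27, against 1.74 in 567 bins of X.

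**Figure D2:**
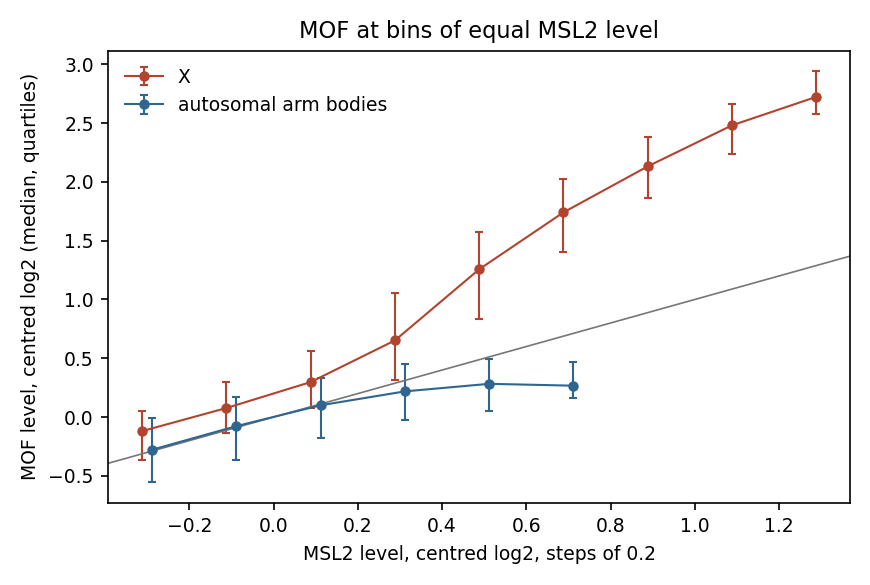
The median level of MOF (y axis, centred log2, bars show the quartiles over bins) is plotted in steps of 0.2 of the MSL2 level (x axis, centred log2) for X and for the autosomal arm bodies, where a step holds at least 20 bins; the grey line marks equal levels. The curves lie close to each other at low MSL2 levels and are 1.26 and 0.28 at an MSL2 level of 0.4 to 0.6. That step lies above the 95th percentile of MSL2 on the autosomal bodies, 0.30.

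Taken bin by bin, the median of MOF minus MSL2 was 0.50 on X, with quartiles of 0.11 and 1.05, and MOF was the higher in 82.3% of the bins. A binomial interval of this median that treats bins as independent is 0.48 to 0.53. It covers variation between bins only. On the autosomes the difference was not uniform. The left arms 2L and 3L had medians of -0.14 and -0.03, and 2R had -0.18. For 3R it was 0.19, and MOF was the higher in 71.7% of its 23925 bins. The sign on an arm depends on the centring. Centred without 3R, an alternative chosen after seeing the data, the medians of 2L and 2R were -0.017 and -0.056, and those of 3L and 3R 0.090 and 0.31, so that the sign on 3L turned while 3R stayed the highest of the arms. On chromosome 4, the small and largely heterochromatic chromosome, it was -0.47 in 519 bins (quartiles -0.65 and -0.31), and MOF was the higher in 4.43% of them.

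In log2 units the difference on chromosome 4 and that on 3R came mainly from MOF. On chromosome 4 the median level was -0.60 for MOF and -0.13 for MSL2. On 3R it was 0.18 for MOF and -0.0069 for MSL2. The share of positions with a value also stood apart on 3R, where it was 66.5% for MOF, against 37.8% on 2L, while for MSL2 it was 74.9% on 3R and 67.1% on 2L. On chromosome 4 the share was 22.13% for MOF and 71.05% for MSL2. Whether these shares play a part in the MOF levels of 3R and chromosome 4 was not tested.

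**Figure D3:**
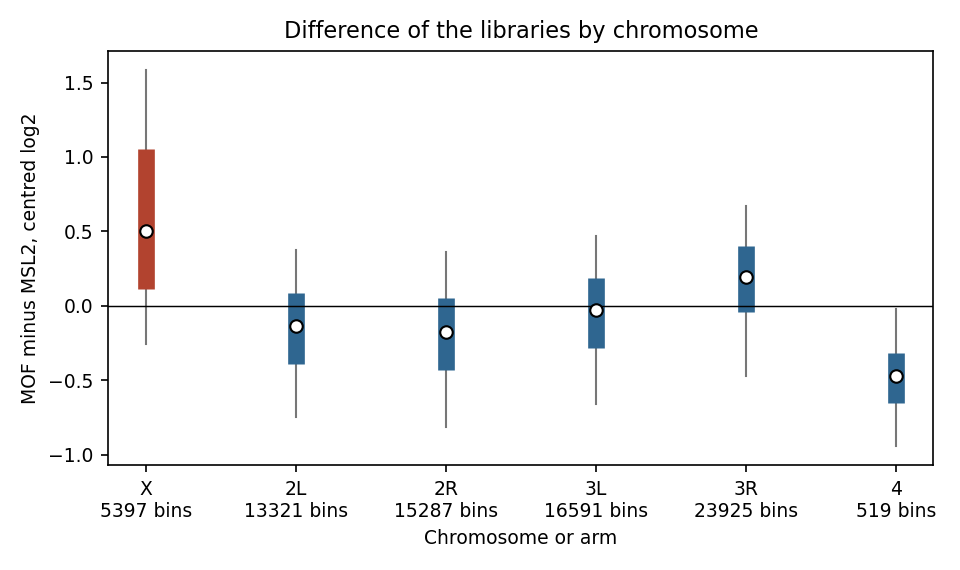
For X, the 4 autosomal arms and chromosome 4 the circles show the median over 1 kb bins of MOF minus MSL2 (y axis, centred log2), the thick bars the quartiles and the thin lines the 5th and 95th percentiles; bin numbers stand under the names. X lies highest with a median of 0.50, 3R is the highest of the autosomal arms with 0.19 and chromosome 4 lies lowest with -0.47.

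In windows of 1 Mb, the median of MOF minus MSL2 was above 0 in 23 of 23 windows of X, where it ran from 0.22 at 22 to 23 Mb to 0.80 at 8 to 9 Mb. On 3R it was above 0 in 24 of 28 windows, with its highest value, 0.51, at 18 to 19 Mb, and on 2L, 2R and 3L together in 17 of 69 windows, or 31 when centred without 3R, which left the counts on X and 3R at 23 and 24. Each of the autosomal arms held windows of either sign. The proximal part of X was the lower in both libraries. In the 1957 bins between 16 and 23 Mb the median level was 0.49 for MOF and 0.20 for MSL2, and in the 3440 bins between 0 and 16 Mb it was 0.93 and 0.38. The correlation between the libraries was 0.89 in the stretch of 16 to 23 Mb and 0.88 in that of 0 to 16 Mb.

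Bins with many values carried the higher levels on X. In bins of 75 to 100 shared values the median level was 1.55 for MOF and 0.59 for MSL2, with a difference of 0.96 over 2742 bins. In bins of 25 to 49 shared values it was 0.18 for MOF and 0.068 for MSL2, with a difference of 0.12 over 1444 bins. On the autosomal bodies the same comparison gave differences of 0.065 and -0.067. The difference on X kept its sign in each class of coverage, and its size moved with the number of values per bin.

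A bin was called MOF-high or MSL2-high where it lay in the highest 5 percent of that library over all shared bins, which gives 5.0% for MOF and 5.0% for MSL2 by construction. The cutoffs lay at a centred level of 0.76 for MOF and 0.37 for MSL2. On X, 2705 bins were MOF-high and 2436 were MSL2-high. That is 50.1% and 45.1% of its shared bins, against 1.56% and 1.91% on the autosomal bodies. The shared bins make up 24.1% of the kb of X, against 58.0% (2L) to 85.8% (3R) of the autosomal arms. They are not a random sample of X, so these shares do not hold for X as a whole. Both were high in 2169 bins of X, or 2262 bins of the genome (3.00%). Of the MOF-high bins of X, 80.2% were MSL2-high (exact binomial interval 78.6% to 81.7%, bins taken as independent). Of the MSL2-high bins of X, 89.0% were MOF-high (87.7% to 90.3%). On the autosomal bodies these shares were 7.97% of 1029 MOF-high bins and 6.51% of 1259 MSL2-high bins.

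The co-bound bins of X formed domains. Bins less than 2 kb apart were joined into 337 domains with a median length of 5 kb. Of these, 77 were at least 10 kb long and held 48.3% of the co-bound bins, and 5 were at least 20 kb long. The 84 co-bound bins of the autosomes fell into 77 regions, of which the longest was 4 kb. That one lay on 3R at chr3R:23498001-23502000 (release 5), with a mean level of 0.94 for MOF and 0.43 for MSL2.

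The domain with the most bins, 30, was chrX:1760001-1793000 (release 5), with a mean level of 2.38 for MOF and 0.89 for MSL2. It was followed by chrX:6121001-6148000, with 2.21 for MOF and 1.05 for MSL2, and chrX:8041001-8071000, with 1.82 and 0.72, each of 27 bins. MSL2 was thus highest in the second of these, while MOF was highest in the first. The domains chrX:11005001-11028000 and chrX:17527001-17550000 had mean levels of 1.69 and 2.17 for MOF and of 0.63 and 0.96 for MSL2. In each of the 5 domains MOF lay above MSL2, by 1.06 to 1.49 on average. No gene is named for them, because no gene positions of release 5 were used here.

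When each library was reduced to bound regions as in the methods of the study (median smoothing over 500 bp, highest 1.5 percent of the values, units up to 200 bp apart joined), X held 435 regions of MOF and 769 of MSL2. The regions of MOF were the longer, with a median of 1580 bp against 840 bp for MSL2, at cutoffs of 2.11 and 0.85 on the deposited scale. Of the MOF regions, 93.1% (90.3% to 95.3%) overlapped one of MSL2, and of the MSL2 regions 51.6% (48.0% to 55.2%) overlapped one of MOF. A smoothed MOF value was present in 745 of the 769 MSL2 regions. The unequal shares go with the unequal numbers of regions. Those depend on the cutoff of each library and on its positions with a value, which were more for MSL2. At positions of X smoothed in both libraries, 20.6% were past the MOF cutoff and 28.5% past that of MSL2. Of the former 88.6% were past the MSL2 cutoff, and of the latter 63.9% were past the MOF cutoff. Where regions overlapped, the peak centres were a median of 280 bp apart from the side of MOF and 260 bp from that of MSL2.

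The profiles of the libraries around the peaks differed most at the MSL2 centres, which the MSL2 library itself had set. Around the centres of 433 MOF regions, the mean level at the highest step of 200 bp was 2.52 for MOF and 1.02 for MSL2. At 1 kb from these centres MOF kept 64.8% and MSL2 58.6% of its height over the flanks at 8 to 10 kb. Around the centres of 768 MSL2 regions, MOF kept 66.5% at 1 kb and MSL2 38.3%. The width at the middle of that height was 3600 bp for MOF and 800 bp for MSL2 around the MSL2 centres, and 3200 bp for MOF and 2800 bp for MSL2 around the MOF centres. Each library chose its own centres and was high there by construction. The narrow summit of MSL2 at its own centres therefore cannot be compared with the MOF curve as a test. In the flanks, 8 to 10 kb away, both were still above their autosomal level, with 1.03 for MOF and 0.39 for MSL2 around MOF centres.

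**Figure D4:**
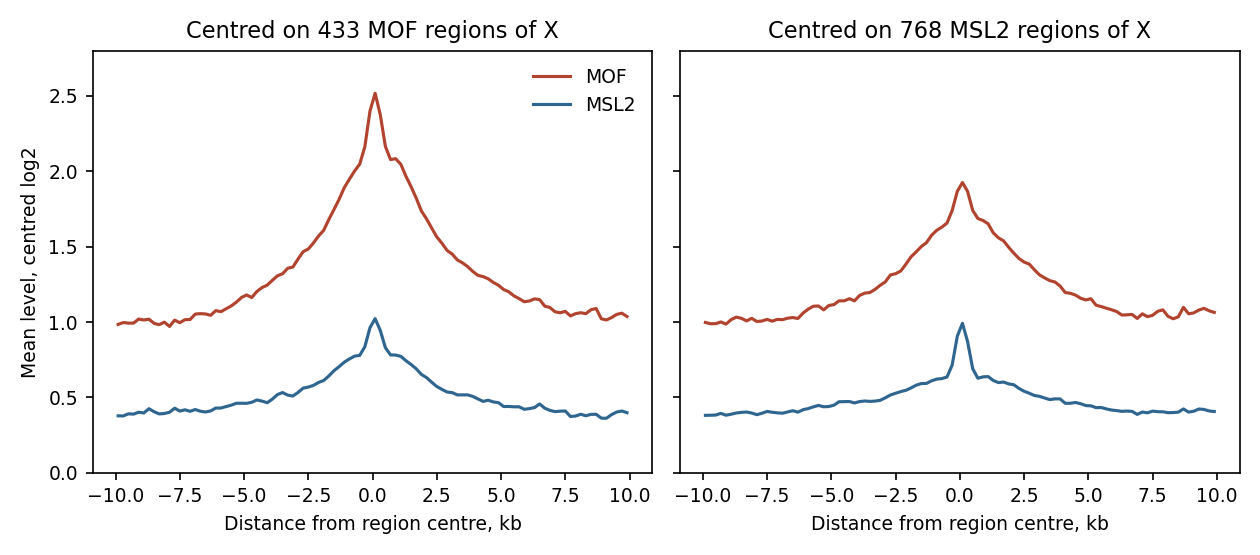
Mean centred log2 levels of MOF and MSL2 (y axis) are plotted in steps of 200 bp by the distance from the region centre in kb (x axis), around 433 MOF regions of X on the left and 768 MSL2 regions of X on the right. Both curves are highest at the centre in both panels, and MSL2 has a summit 800 bp wide around its own centres, where MOF is 3600 bp wide. Each library chose its own centres, so these widths do not test a difference in shape. Around the MOF centres the widths are 3200 bp for MOF and 2800 bp for MSL2.

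Bins in which one protein exceeded the other by 2-fold or more were split by chromosome. MOF was at least 1 above MSL2 in 1532 bins (2.03% of all shared bins), of which 1466 lay on X, that is 27.2% of the bins of X, and 49 on 3R. MSL2 was at least 1 above MOF in 493 bins (0.654%), and none of the 5397 bins of X was among them. These lay on 2R (232 bins, 1.52% of its bins), 2L (106, 0.80%), 3L (95, 0.57%), 3R (39, 0.16%) and chromosome 4 (20, 3.85%). The mitochondrial genome held 1 more. The split rests on the scale and on the cutoff. With each library divided by the median absolute deviation of its autosomal bins, 1 unit stands for 0.28 in MOF and 0.13 in MSL2, less than 2-fold. In such units MOF was at least 1 above MSL2 in 1942 bins of X and in 19884 of all shared bins. MSL2 was at least 1 above MOF in 903 bins of X and in 20515 of all shared bins. At a log2 difference of 0.5 the counts on X were 2705 for MOF above MSL2 and 43 for MSL2 above MOF. The largest difference on X, 2.30, was at chrX:19387001-19388000, where MOF was 2.92 and MSL2 0.63. MSL2 was above its autosomal median there as well, at the percentile 74.5 of the bins of X. The next largest differences were 2.11 at chrX:19626001-19627000 and 2.08 at chrX:4576001-4577000, also with both proteins bound (MOF 2.79 and 2.95, MSL2 0.68 and 0.86). In the other direction the largest difference on X was -0.76, at chrX:13528001-13529000, with -0.76 for MOF and 0.00051 for MSL2, so that MOF was low there and MSL2 was at its autosomal median.

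Few of the MOF-high bins of X had MSL2 at or below its autosomal median. Across the genome 153 bins were MOF-high and MSL2-low (0.203%), of which 26 lay on X, 0.96% of its MOF-high bins. By the number of bins the class was the more frequent on X, with 0.48% of its bins against 0.18% outside X. Among the MSL2-low bins, MOF was high in 2.84% of 916 on X and in 0.37% of 32990 on the autosomal bodies. They were isolated, in 23 regions of which 20 were single bins. Of the 26 bins, 23 lay within 2 kb of a co-bound bin. The region with the largest summed difference was chrX:16778001-16780000, with a mean level of 1.13 for MOF and -0.094 for MSL2. It was followed by chrX:11466001-11468000, with 0.97 and -0.083, and chrX:15631001-15634000, with 0.91 and -0.10. None of these 26 bins reached a MOF level above 1.22, whereas the co-bound bins of X had a median of 1.86.

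Outside X, MOF was high without MSL2 mainly on 3R. Of the 127 bins there, 108 lay on 3R, 9 on 2R, 8 on 3L and 2 on 2L. The arm 3R held 23925 of the 69955 shared bins outside X. Of the MOF-high bins of an arm, 12.4% were MSL2-low on 3R, 14.3% on 3L, 10.2% on 2R and 6.06% on 2L. By this share 3R did not stand apart, so the count goes with its many MOF-high bins. The arm 3R also held 873 of the 1063 MOF-high bins outside X, but 330 of the 1332 MSL2-high ones. The regions with the most bins were chr3R:18791001-18795000, with a mean level of 0.87 for MOF and -0.058 for MSL2 in 4 bins, and chr3R:23505001-23509000, with 0.93 and -0.17 in 3 bins. This second region lies 3 kb from the longest co-bound region of the autosomes, so that on 3R the same stretch held MOF with and without MSL2. With at least 50 shared values per bin, which also moves the cutoffs, the 127 bins became 18, and with the top 1.5 percent as high there were 0.

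MSL2 was high without MOF in 291 bins (0.386%), of which 285 lay outside X, where 92.8% of all shared bins lie. That is 0.11% of the bins of X and 0.41% of those outside it. Among the MOF-low bins, MSL2 was high in 0.84% of 713 on X and in 0.82% of 32990 on the autosomal bodies, so that these shares were close. The bins outside X lay on 2R (148), 2L (66), 3L (48), 3R (22) and chromosome 4 (1). Of the MSL2-high bins of an arm, 29.54% were MOF-low on 2R, 27.05% on 2L, 20.25% on 3L and 6.67% on 3R. These shares depend on where MOF-low is set, the median of the pooled arm bodies. The MOF median was 0.21 on the body of 3R and -0.12 on those of 2L, 2R and 3L together, so MOF-low bins were rarer on 3R. The regions with the most bins on 2L were chr2L:12034001-12037000, with a mean level of -0.60 for MOF and 0.50 for MSL2, and chr2L:12017001-12019000, with -0.62 and 0.48, which lie 15 kb apart. On 3L, chr3L:14765001-14767000 had -0.54 for MOF and 0.40 for MSL2. Regions of 2R were not among those named. The longest region of this class was 4 kb over all autosomes and 3 kb without 2R. The 6 bins on X were single, and MSL2 reached at most 0.55 in them, at chrX:2147001-2148000, where MOF was -0.074. None of the 6 lay within 2 kb of a co-bound bin, and they rested on 26 to 73 shared values. With at least 50 shared values per bin the 285 bins became 107, and with the top 1.5 percent as high 1 bin.

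The bins of X that were high in 1 library only differed in where they lay. Of 536 bins that were MOF-high and not MSL2-high, 83.0% (79.6% to 86.1%) lay within 2 kb of a co-bound bin, of 267 that were MSL2-high and not MOF-high 41.6% (35.6% to 47.7%), and of 2425 high in neither 23.6% (21.9% to 25.3%). Bins with MOF alone past its cutoff thus lay mostly next to co-bound domains. Their median level was 1.04 for MOF and 0.25 for MSL2, below the MSL2 cutoff of 0.37 and above the autosomal median. The bins with MSL2 alone past its cutoff had median levels of 0.47 for MOF and 0.44 for MSL2. The regions of the first kind with the most bins were chrX:15627001-15635000, with mean levels of 1.17 for MOF and 0.10 for MSL2, and chrX:2590001-2599000, with 1.31 and 0.23. Among those of the second kind was chrX:10644001-10652000, with 0.32 for MOF and 0.48 for MSL2.

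The cutoffs of the libraries differ in level, so the bins of X were also ranked within X in each library. The ranks differed by at least 25 percentile points in favour of MOF in 300 bins (5.56%) and in favour of MSL2 in 303 bins (5.61%), and by at least 50 points in 6 and 8 bins. The region with the most bins held 5 for MOF and 7 for MSL2. That of MSL2, chrX:636001-645000, had mean levels of 0.13 for MOF and 0.33 for MSL2.

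Some strong MSL2 binding on X fell outside the bins compared. Among 15906 bins of X with at least 25 values of MSL2 regardless of MOF, 2672 reached the MSL2 cutoff. Of these 2672 bins, 271 had no shared bin. For MOF, 98.5% of 2731 such bins were shared. MSL2 had a median level of 0.31 in the shared bins of X and 0.077 in its other bins of X. Where MSL2 is high with no MOF value, the level of MOF is unknown.

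The 3 libraries of roX1 roX2 mutants have an input of their own and were read at the same bins. The classes of bins were set by the wild type levels, which are therefore no measure to compare the genotypes by. These mutants carry roX1[ex6] and the deficiency Df(1)roX2[52] on a y w chromosome together with the transgene P[w+ 4Δ4.3], over Y, and are thus mutant for both roX genes. At bins co-bound in wild type on X, the median level in the mutant libraries was 0.34 for MOF (830 bins with a value), 0.23 for MSL2 (1079) and 0.96 for MSL1 (1435). At bins high in neither it was 0.096 for MOF, 0.12 for MSL2 and 0.49 for MSL1. At bins that were MOF-high and not MSL2-high it was 0.19, 0.14 and 0.76, and at bins that were MSL2-high and not MOF-high 0.15, 0.12 and 0.61. The mutant MOF medians rested on 160 of the 536 bins with MOF alone and on 43 of the 267 bins with MSL2 alone. The order of the classes in MOF and MSL1 of the mutant was thus co-bound, MOF alone, MSL2 alone and neither, with quartile ranges that overlap between neighbours. In MSL2 of the mutant this order did not hold, with 0.120 for MSL2 alone and 0.125 for neither.

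At autosomal bins that were MOF-high and MSL2-low in wild type, the mutant libraries had median levels of 0.25 for MOF, 0.14 for MSL2 and 0.19 for MSL1. At autosomal bins that were MSL2-high and MOF-low in wild type, the levels in the mutant were -0.20, 0.0059 and -0.065. For autosomal bins high in neither, the levels of MOF, MSL2 and MSL1 in the mutant were -0.057, -0.040 and -0.036. For those high in both they were 0.28, 0.22 and 0.32.

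The excess of MOF over 3R and its low level on chromosome 4 were not seen in MOF of the mutant. On 3R the median MOF level was -0.040 in the roX mutant and 0.18 in wild type. On chromosome 4 it was 0.0027 in the mutant and -0.60 in wild type. These differences hold genotype, library and input together, which cannot be told apart. Within 3R, the MOF-high bins of wild type had a median MOF level of 0.26 in the mutant and the other bins -0.054, with 0.20 against -0.019 for MSL2 and 0.19 against -0.037 for MSL1. The 3 libraries of the mutant were thus higher at these bins alike.

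**Figure D5:**
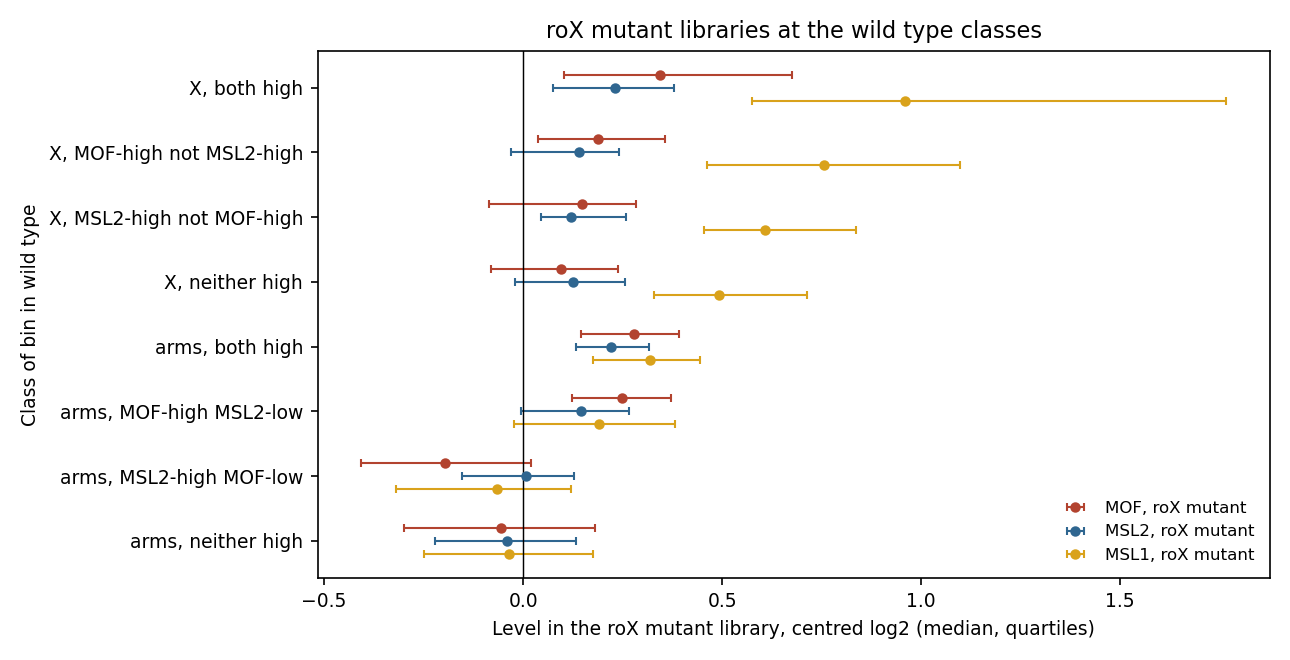
Rows are classes of bins by their levels in wild type on X and on the 4 autosomal arms, and the x axis is the centred log2 level of MOF, MSL2 and MSL1 in the roX mutant libraries, with points at the median over bins and bars at the quartiles. On X the co-bound bins have the highest medians of the 4 classes in the 3 libraries, and on the arms the MSL2-high and MOF-low bins lie at -0.20 for MOF and 0.0059 for MSL2.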

How the data were processed

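Chromatin of wild type salivary glands was precipitated with anti-MOF or anti-MSL2 and sequenced on the SOLiD platform. Uniquely mapped reads were aligned by the authors with Bioscope (release 5), who deposited log2 ratios of ChIP to input every 10 bp. The deposited files hold other lines between the values, which were skipped. The scaling of ChIP to input and the rule for positions without a value are given in the methods only by reference. Counts of reads were not used here, so the depth is unknown and no counting error could be given.

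Positions with a value in both libraries were averaged in 1 kb bins with at least 25 values and centred on the autosomal arm bodies. Low means at or below the median of those bodies. The classes were not redone with a low level set without 3R. Bins of a class less than 2 kb apart were joined. Named regions were those with the most bins, 5 for each class on X and 5 on 2L, 3L, 3R and 4 together, ties broken by the summed difference (for co-bound domains by summed MOF), and the 5 single bins of X with the largest difference each way, of which the text prints a part. Regions high in 1 library without the other being low, distances, profiles, ranks and the mutant libraries were chosen after seeing the data. The members and lists were chosen with earlier results of these data known. Intervals are exact binomial, or order statistics for medians, at 95%, and treat bins as independent. Binning, centring and joining were tested on simulated data in which the differences were known. Alternatives were other bins, coverage, centring, scaling and cutoffs. Files of *D. simulans*, gene positions and genome sequence were not used here. Python 3.11.15, numpy 2.4.6, pandas 2.3.3, scipy 1.17.1 and matplotlib 3.10.9 were used.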

Additional observations from a re-analysis of the deposited data

How the results depend on the processing

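In 67 comparisons of a result with an alternative, 24 values stayed within their interval, or counts within 1.5 times, 42 moved and 1 was reversed. The reversed one was the difference on 3L, -0.03, which was 0.090 when centred without 3R; that centring also gave -0.017 on 2L, -0.056 on 2R, 0.31 on 3R and 31 in place of 17 of the 69 windows of 2L, 2R and 3L. The median of MOF minus MSL2 on X, 0.50, was 0.74 with at least 50 shared values, 0.34 with at least 10, 0.64 in 5 kb bins, 0.43 over all positions of each library and 0.62 when centred without 3R, an alternative chosen after seeing the data. On chromosome 4, -0.47, it was -0.52 with at least 50 values and -0.35 centred without 3R. Divided by the median absolute deviation of its autosomal bins, each library rose alike on X, to 2.72 for MOF and 2.48 for MSL2, a difference of 0.46 in these units, with -1.14 on chromosome 4. The excess of MOF on X in log2 units thus goes with the wider scale of that library. The share of MOF-high bins of X that were MSL2-high, 80.2%, was 89.3% in 5 kb bins, 77.7% with medians and 82.9% with the top 10 percent. The share of MSL2-high bins that were MOF-high, 89.0%, was 90.9% with at least 50 values, 86.6% with at least 10, 91.0% in 5 kb bins, 80.0% with the top 1.5 percent and 87.0% with the top 10 percent.

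The counts moved most. Bins with MOF at least 1 above MSL2, 1532, became 300 in 5 kb bins, 19884 after scaling by the median absolute deviation (1942 on X), 7643 at a difference of 0.5 and 13 at 2. Bins with MSL2 at least 1 above MOF, 493, became 292 with at least 50 values, 29 in 5 kb bins, 20515 after that scaling (903 on X, where there were 0), 8496 at 0.5, 0 at 2 and 176 centred without 3R. The 127 bins outside X that were MOF-high and MSL2-low became 18 with at least 50 values, 197 with at least 10, 9 in 5 kb bins, 0 with the top 1.5 percent, 813 with the top 10 percent and 397 with low up to the 75th percentile. The 285 that were MSL2-high and MOF-low became 107 with at least 50 values, 39 in 5 kb bins, 1 with the top 1.5 percent, 1145 with the top 10 percent and 645 with low up to the 75th percentile. Fewer bins in the 5 kb setting lower each count by construction. A smaller or larger difference, and other levels for high or low, also shift the counts by construction. With the median absolute deviation as the unit, a difference of 1 is less than 2-fold. The cause of the other shifts was not tested. No paired analysis was possible because each antibody has 1 library, and for the same reason none could be left out. The unknown depth limits every single bin.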

Other observations

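The scaffolds and the centromere ends are part of the counts above and are given here on their own. On XHet, the heterochromatic scaffolds of X, the median level was 0.50 for MOF and 0.017 for MSL2 in 36 bins, and 5 of these bins were co-bound. At the centromere end of X it was 0.39 for MOF and 0.12 for MSL2 in 477 bins. Among the autosomal arms the difference MOF minus MSL2 was 0.31 at the centromere end of 3L and -0.38 at that of 3R, in 612 and 1459 bins.

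The highest values of both libraries were in unplaced sequence. Of 5 bins on Uextra, 4 had levels of 3.88 to 6.03 for MOF and of 1.87 to 3.39 for MSL2, above each bin of X, and each rested on 26 to 31 shared values.

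In the 953 bins of X with a value in all 5 libraries of *D. melanogaster*, wild type MOF correlated at 0.91 with wild type MSL2, 0.52 with MOF, 0.44 with MSL2 and 0.58 with MSL1 of the roX mutant. In 51753 autosomal bins these values were 0.40, 0.58, 0.56 and 0.40, so that on the autosomes wild type MOF was closer to the mutant MOF and MSL2 libraries, which have another input, than to wild type MSL2. Wild type MSL2 correlated at 0.37 with the MSL2 library of the mutant there. The cause was not tested.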
